A study of Homo sapiens with 6 samples.

Results

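Oxidative phosphorylation runs on 5 protein complexes of the inner mitochondrial membrane, and the transcripts of their nuclear-encoded subunits are described here. Genes were taken in by symbol: those starting with NDUFA, NDUFB, NDUFC, NDUFS, NDUFV, UQCR or ATP5, the succinate dehydrogenase genes SDHA to SDHD, CYC1, and COX4 to COX8 with a subunit letter or number. Of 11963 genes with a probe set of their own, 74 met this rule, through 107 of the arrays' 22277 probe sets, and each gene was read from its probe set with the highest mean. Of these, 66 encode subunits: 28 of complex I, 3 of complex II, 7 of complex III, 13 of complex IV and 15 of complex V. The other 8 were caught by the prefix only: 5 complex I assembly factors, the inhibitor ATP5IF1, the pseudogene ATP5MC2P1 and the antisense RNA NDUFB2-AS1.

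The 6 arrays measured total RNA of U87 cells, a human glioblastoma cell line, after 16 h in culture dishes, in DMEM with 10% fetal bovine serum and glutamine. IRE1dn cells (3 arrays) expressed a dominant negative transgene of IRE1alpha, an endoplasmic reticulum stress sensor, and the labels name 1 clone for them. The ctrl cells (3 arrays) carried the empty plasmid, and no clone is assigned to an array. The labels do not tell if the replicates of a group were cultured apart, so the p-values cover the spread of these 3 and 3 samples alone, and part of that spread may be technical.

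Complexes I and II take electrons from NADH and from succinate and hand them to ubiquinone. Complex III passes them on to cytochrome c and complex IV to oxygen, and complexes I, III and IV pump protons that drive ATP synthesis in complex V. All but complex II hold core proteins made from mitochondrial DNA beside the nuclear-encoded subunits, and glioma cells often draw on glycolysis as well.

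Signals are the deposited linear intensities of each array, in signal units, already scaled to a trimmed mean of 100.03 (2% left out at each end). Array medians ran between 19.0 and 21.0 in IRE1dn and between 18.4 and 19.2 in ctrl. ERN1, which encodes IRE1alpha, had 9.89, 10.5 and 12.9 units on the IRE1dn arrays, against 10.99, 14.0 and 11.9 units on the ctrl arrays, all near or below the filter level of 13.0. Whether its probe set lies inside the transgene is not given in the sources used here, so it does not check the labels. The mesenchymal markers VIM, CD44 and FN1 summed to 7275 to 10846 units in IRE1dn and 5090 to 6471 units in ctrl. FN1 had 2721 to 3879 units in IRE1dn and 831 to 1941 units in ctrl. The groups overlapped in CD44 (1450 to 1845 and 1634 to 1681 units) and slightly in VIM (2921 to 5122 and 2586 to 2925 units). Of 5 glial and neural stem markers only NES was above the filter level in the mean, and the glial markers GFAP and S100B stayed under 2 units. The list summed to 36.4 to 52.2 units in IRE1dn and 31.7 to 57.5 units in ctrl. Within it OLIG2 had 2.34 to 4.46 units in IRE1dn and 9.20 to 24.9 units in ctrl, with groups apart. No marker of the endothelial (3 genes), epithelial (3 genes) or leukocyte (2 genes with a probe set) lists was above it in the mean. The part of marker differences in the results below was not tested.

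Promoter stretches are shown first for subunits whose transcripts behave differently in the results below, because the nuclear factors NRF1, GABP (an ETS factor) and YY1 are known to act at many respiratory chain promoters. The stretches are RefSeq sequence of GRCh38.p14, written 5′ to 3′ on the gene's strand, and those of 120 bases end at the base before the annotated start. Capitals mark the letters CCGGAAG of the ETS core, which reads CTTCCGG on the other strand, or GCATGCG of the NRF1 core, which reads CGCATGC on the other strand; matches of both strands overlap in some sites. COX8A, COX6A1 and COX6B1 encode complex IV subunits that were lower in IRE1dn, and each carries the ETS letters. COX5A, COX7B and COX7A2, with larger decreases, hold neither set of letters in their windows, and COX4I1, which missed the threshold, holds the ETS letters elsewhere in its window. SDHD and ATP5MC2, also lower, carry NRF1 letters. The SDHD stretch runs 120 to 91 bases before its start, and the 120 bases before that start overlap the neighbouring gene TIMM8B. The ATP5MC2 stretch runs 52 to 23 bases before 1 of its starts, inside ATP5MC2 itself. The sets of letters are not exclusive: outside the stretches shown, the SDHD window also holds the ETS letters and the COX6A1 window the NRF1 letters. NDUFV2, the subunit with the largest decrease among the 64 tested, and SDHA, the 1 tested subunit with a higher mean in IRE1dn, hold neither in the stretch shown.
COX8A, chr11:63974500-63974619, plus strand: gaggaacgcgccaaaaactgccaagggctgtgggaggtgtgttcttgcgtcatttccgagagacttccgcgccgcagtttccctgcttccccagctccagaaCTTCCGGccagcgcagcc
COX6A1, chr12:120437993-120438112, plus strand: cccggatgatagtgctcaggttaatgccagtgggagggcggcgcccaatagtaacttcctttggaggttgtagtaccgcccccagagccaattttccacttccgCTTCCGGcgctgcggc
COX6B1, chr19:35648203-35648322, plus strand: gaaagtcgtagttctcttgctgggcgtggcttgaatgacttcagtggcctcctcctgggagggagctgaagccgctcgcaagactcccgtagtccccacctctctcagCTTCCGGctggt
COX5A, chr15:74938074-74938193, minus strand: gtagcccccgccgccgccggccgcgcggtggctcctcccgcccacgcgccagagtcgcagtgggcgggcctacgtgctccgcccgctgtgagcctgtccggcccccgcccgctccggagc
COX7B, chrX:77899348-77899467, plus strand: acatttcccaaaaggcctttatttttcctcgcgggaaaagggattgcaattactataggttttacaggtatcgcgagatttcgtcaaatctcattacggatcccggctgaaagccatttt
SDHD, chr11:112086753-112086782, plus strand: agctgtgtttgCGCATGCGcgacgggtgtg
ATP5MC2, chr12:53676106-53676135, minus strand: ggcccgggtcaCGCATGCGctgagccttcc
NDUFV2, chr18:9102579-9102698, plus strand: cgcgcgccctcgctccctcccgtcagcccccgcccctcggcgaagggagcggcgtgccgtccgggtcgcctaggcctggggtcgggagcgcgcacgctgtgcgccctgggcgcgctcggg
SDHA, chr5:218200-218319, plus strand: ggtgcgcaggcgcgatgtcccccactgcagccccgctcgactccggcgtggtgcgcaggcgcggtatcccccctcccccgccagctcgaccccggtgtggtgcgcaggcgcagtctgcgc

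Windows of 250 bases before to 50 bases after a start were searched on both strands, and 57 of the 66 subunits had at least 1, giving 70 windows. The NRF1 letters were in 20% of subunit windows, in 5.81% of the windows of tested genes and in 3.91% of all RefSeq promoter windows. For the ETS letters the shares were 27.1%, 17.1% and 10.3%. For the YY1 letters AAGATGG they were 24.3%, 7.85% and 5.84%. The letters were thus more frequent in subunit windows, and a match is a description of the sequence, not a binding site. Within the tested subunits the medians were close with and without each set of letters. Those with NRF1 letters had a median log2 difference of -0.61 (10 of 13 called lower), and those without had -0.63 (28 of 43). With and without ETS letters the medians were -0.61 (14 of 18) and -0.66 (24 of 38), and with and without YY1 letters -0.63 (13 of 16) and -0.62 (25 of 40).

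Most subunit transcripts of complexes I, III, IV and V were lower in IRE1dn than in ctrl cells, and those of complex II did not move together. Of 64 subunits tested, 44 were lower and 0 were higher (limma, Benjamini-Hochberg adjusted p under 0.05 over 7178 genes). Among all tested genes 34.4% passed in either direction, 16.5% lower and 17.9% higher. The median log2 difference, IRE1dn minus ctrl on the log2(signal + 1.75) scale, was -0.62 over the subunits, or 65.0% of the ctrl level, against 0.01 over all tested genes. The difference was negative for 63 of 64 subunits, compared with 49.2% of all tested genes, and SDHA was the exception. For 56 subunits all 3 IRE1dn arrays lay below all 3 ctrl arrays, an order found in 24.2% of tested genes, and for 8 the groups overlapped. The decreases were moderate, since 8 of 64 subunits were lower by at least 2-fold. Bulk RNA cannot tell fewer cells of a kind from less RNA per cell, and array scaling hides a change shared by all transcripts.

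**Figure D1:**
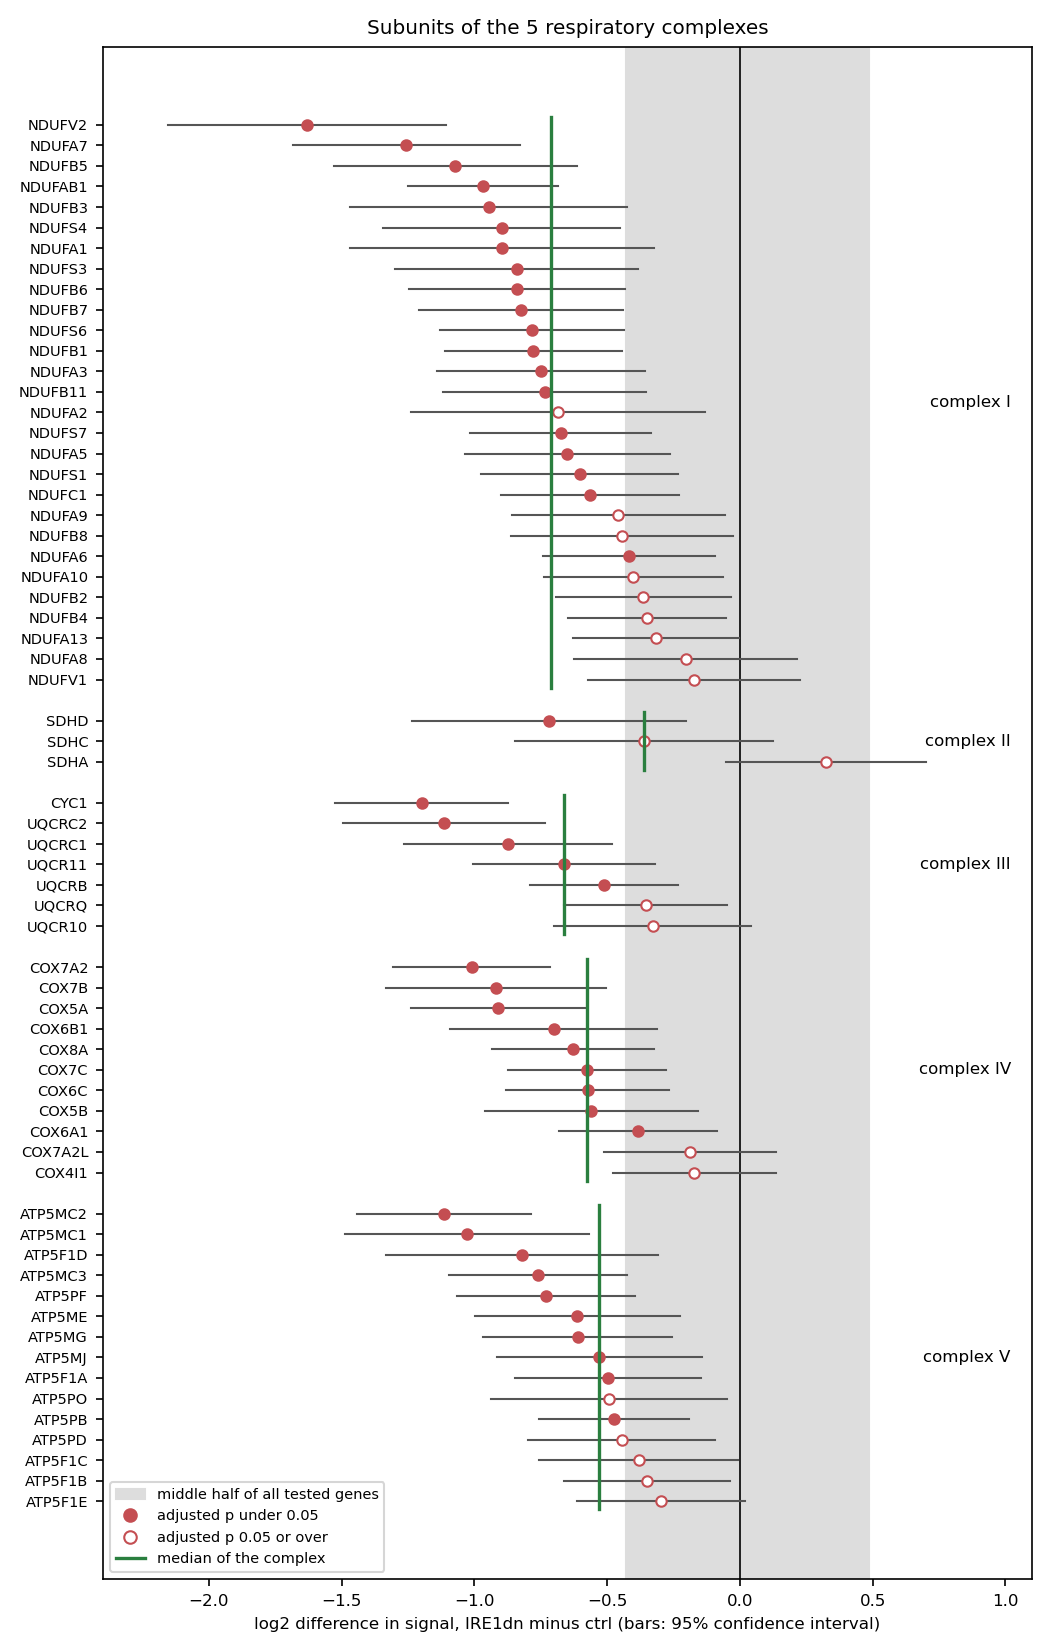
Log2 difference in signal (IRE1dn minus ctrl) of the 64 tested subunits by complex, with 95% confidence intervals from limma; filled points passed the threshold, green lines are complex medians and the grey band is the middle 50% of all tested genes. The 44 filled points all lie left of 0, and SDHA is the 1 point to the right of 0.

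Subunit transcripts are bright, and 57 of the 64 were among the 20% of tested genes with the highest mean signal. In that bright class 21.9% of 1436 genes were lower, 16.3% were higher and the median was -0.05, whereas 38 of the 57 subunits in it were lower. The arrays within a group were not alike. Mean deviations of the subunits from their own 6-array means were -0.27, -0.32 and -0.37 on the log2 scale for IRE1dn replicates 1 to 3 and 0.52, 0.18 and 0.26 for ctrl replicates 1 to 3. The groups did not overlap in this mean, and ctrl replicate 1 stood highest: it was the highest ctrl array for 51 of 64 subunits (79.7%), against 31.1% of all tested genes. Without it 37 subunits were lower, beside 15.9% of all tested genes, and the subunit median was -0.52. Without IRE1dn replicate 2 the count was 28 of 64, beside 9.64% of all tested genes. Without both ctrl replicate 1 and IRE1dn replicate 3 it was 26, beside 7.91%. In each of these settings 63 of the 64 differences were negative and 0 subunits were higher.

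**Figure D2:**
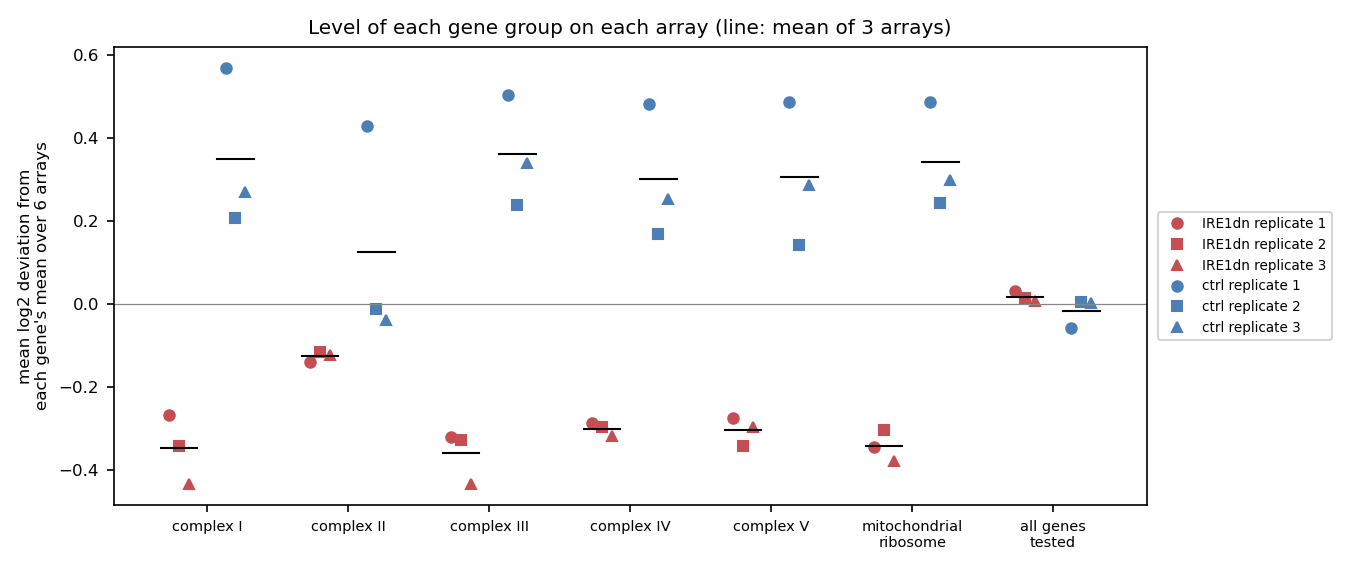
Mean log2 deviation of each gene group from its genes' own 6-array means on each array (y axis, log2 units), IRE1dn in red to the left of ctrl in blue within each group; circles, squares and triangles are replicates 1, 2 and 3, and lines are group means. The IRE1dn arrays lie below the ctrl arrays in all 5 complexes, ctrl replicate 1 is the highest array in each complex, and all tested genes stay near 0.

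Complex I, the NADH dehydrogenase, had 19 of 28 subunits lower, with a median of -0.71 (61.1% of ctrl), and all 28 differences were negative. Without IRE1dn replicate 2 or without IRE1dn replicate 3 the count was 14 of 28, beside 9.64% and 9.85% of all tested genes. NDUFV2, an iron-sulfur subunit of the NADH-oxidising arm, had 317, 229 and 177 units in IRE1dn against 902, 611 and 702 units in ctrl. Every IRE1dn array was below every ctrl array, and the difference was -1.63 (SE 0.23; limma adjusted p = 0.0011). NDUFV1, its partner that binds NADH and the flavin, had 631, 527 and 485 units in IRE1dn against 526, 739 and 598 units in ctrl. Here the groups overlapped, and the difference was -0.17 (95% interval -0.57 to 0.22; limma adjusted p = 0.48).

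NDUFA7, an accessory subunit, had 111, 109 and 95.6 units in IRE1dn against 314, 230.1 and 224 units in ctrl, a difference of -1.26 (SE 0.19; limma adjusted p = 0.0014). NDUFB5, an accessory subunit of the membrane arm, had 509, 539.5 and 510.2 units in IRE1dn against 1532, 907 and 942 units in ctrl, a difference of -1.07 (SE 0.20; limma adjusted p = 0.0041). In both genes the groups were apart and ctrl replicate 1 was the highest array. The core subunits, which hold the redox centres, and the accessory subunits gave like summaries: 4 of 5 core subunits were lower with a median of -0.67, and 15 of 23 accessory subunits with a median of -0.74. Without IRE1dn replicate 3 the core count was 2 of 5, beside 9.85% of all tested genes. The 9 complex I subunits that missed the threshold had differences between -0.69 (NDUFA2) and -0.17 (NDUFV1).

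Complex II, succinate dehydrogenase, also works in the tricarboxylic acid cycle, and its 3 subunits on the arrays did not move together. SDHA, the flavoprotein that oxidises succinate, had 285, 328 and 327 units in IRE1dn against 229.9, 233 and 289.7 units in ctrl. The groups overlapped by 1 array pair, and the difference was 0.32 (95% interval -0.05 to 0.70; limma adjusted p = 0.16). SDHD, a membrane anchor that helps bind ubiquinone, had 216, 228 and 215 units in IRE1dn against 530, 320.5 and 282 units in ctrl. It fell by 0.72 (SE 0.23; limma adjusted p = 0.037) with groups apart, and this call was lost without any 1 of the IRE1dn arrays (adjusted p between 0.093 and 0.11). Without ctrl replicate 1 its difference was -0.45 (adjusted p = 0.04996).

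SDHC, the other anchor, had 349.6, 304 and 318 units in IRE1dn against 583, 378 and 327 units in ctrl, a difference of -0.36 (95% interval -0.85 to 0.13; limma adjusted p = 0.22). Its groups overlapped, and without ctrl replicate 1 the difference was -0.12. Another probe set of SDHC read 187, 114 and 138 units in IRE1dn against 686, 368 and 294 units in ctrl, a difference of -1.54. The remaining probe sets of SDHC gave -0.31 and -0.40, near the one used. The probe set at -1.54 thus stands apart in size from the others of this gene. The complex II median was -0.36. SDHB was not analysed here.

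Complex III, which takes electrons from ubiquinol, had 5 of 7 subunits lower with a median of -0.66. CYC1, cytochrome c1, which passes electrons to cytochrome c, had 465, 464 and 482 units in IRE1dn against 1217, 974 and 1068 units in ctrl. The IRE1dn arrays were close to each other and all below ctrl, with a difference of -1.20 (SE 0.15; limma adjusted p = 0.00043). UQCRC2, a core protein of the matrix side, had 449, 460.5 and 457 units in IRE1dn against 1243, 877 and 884 units in ctrl, a difference of -1.11 (SE 0.17; limma adjusted p = 0.0014). A further probe set of UQCRC2 gave -1.22.

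UQCRC1, the other core protein, had 469.6, 356 and 325 units in IRE1dn against 670.5, 663 and 757 units in ctrl, a difference of -0.87 (SE 0.18; limma adjusted p = 0.0050). All 3 core and catalytic subunits measured were thus lower, with a median of -1.11. Of the 4 small subunits 2 were lower, with a median of -0.43: UQCR11 and UQCRB passed the threshold, while UQCRQ (-0.35; adjusted p = 0.071) and UQCR10 (-0.33; adjusted p = 0.15) did not.

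Complex IV, cytochrome c oxidase, had 9 of 11 tested subunits lower with a median of -0.58. COX7A2, the widely expressed form of a small membrane subunit, had 664, 637 and 662 units in IRE1dn against 1379, 1354 and 1232 units in ctrl, a difference of -1.01 (SE 0.13; limma adjusted p = 0.00064). COX7B, another small membrane subunit, had 1006, 931 and 805 units in IRE1dn against 2249, 1487 and 1524 units in ctrl, a difference of -0.92 (SE 0.18; limma adjusted p = 0.0051). COX5A, a subunit of the matrix side, had 895, 720.0 and 739.8 units in IRE1dn against 1603, 1364 and 1449 units in ctrl, a difference of -0.91 (SE 0.15; limma adjusted p = 0.0019). The groups were apart in these 3 genes. Without IRE1dn replicate 2 the complex had 5 subunits lower, beside 9.64% of all tested genes.

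Several complex IV subunits exist as tissue forms, and the muscle forms COX6A2 and COX7A1 were below the filter level in both groups and were not tested. COX6A2 had 9.74, 10.8 and 9.82 units in IRE1dn against 6.67, 10.7 and 9.03 units in ctrl. COX7A1 was under 1 unit on all 6 arrays. Of the widely expressed forms, COX6B1 fell by 0.70 (SE 0.17; limma adjusted p = 0.013) and COX8A fell by 0.63 (SE 0.14; limma adjusted p = 0.0073). COX6A1 had 1502, 1521 and 1477 units in IRE1dn against 2124, 1723 and 2049 units in ctrl, a difference of -0.38 (SE 0.13; limma adjusted p = 0.049). Its groups were apart, and its call was lost in 5 of the 6 fits with 1 array left out (adjusted p between 0.084 and 0.14). The COX6B1 call was lost without IRE1dn replicate 2 (adjusted p = 0.054).

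COX4I1, the common form of the subunit that binds ATP as a regulator, had 1417, 1547 and 1759 units in IRE1dn against 1900.1, 1651 and 1756 units in ctrl. The groups overlapped, and the difference was -0.17 (95% interval -0.48 to 0.14; limma adjusted p = 0.36). A second bright probe set of COX4I1, with a lower mean, had 992, 955 and 933 units in IRE1dn against 1682, 1335 and 1346 units in ctrl, a difference of -0.59 with groups apart, so the reading of this gene depends on the probe set. The probe set used is 1 of 7, with those of SDHA and SDHC, whose names end in _x_at, the maker's mark for possible binding of related transcripts. COX7A2L, a relative of COX7A2 that joins complexes III and IV into supercomplexes, had 509.9, 589.9 and 562 units in IRE1dn against 669, 591 and 633 units in ctrl, a difference of -0.19 (95% interval -0.51 to 0.13; limma adjusted p = 0.34). Its groups were barely apart. NDUFA4, COX4I2 and other partner forms were not analysed here.

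**Figure D3:**
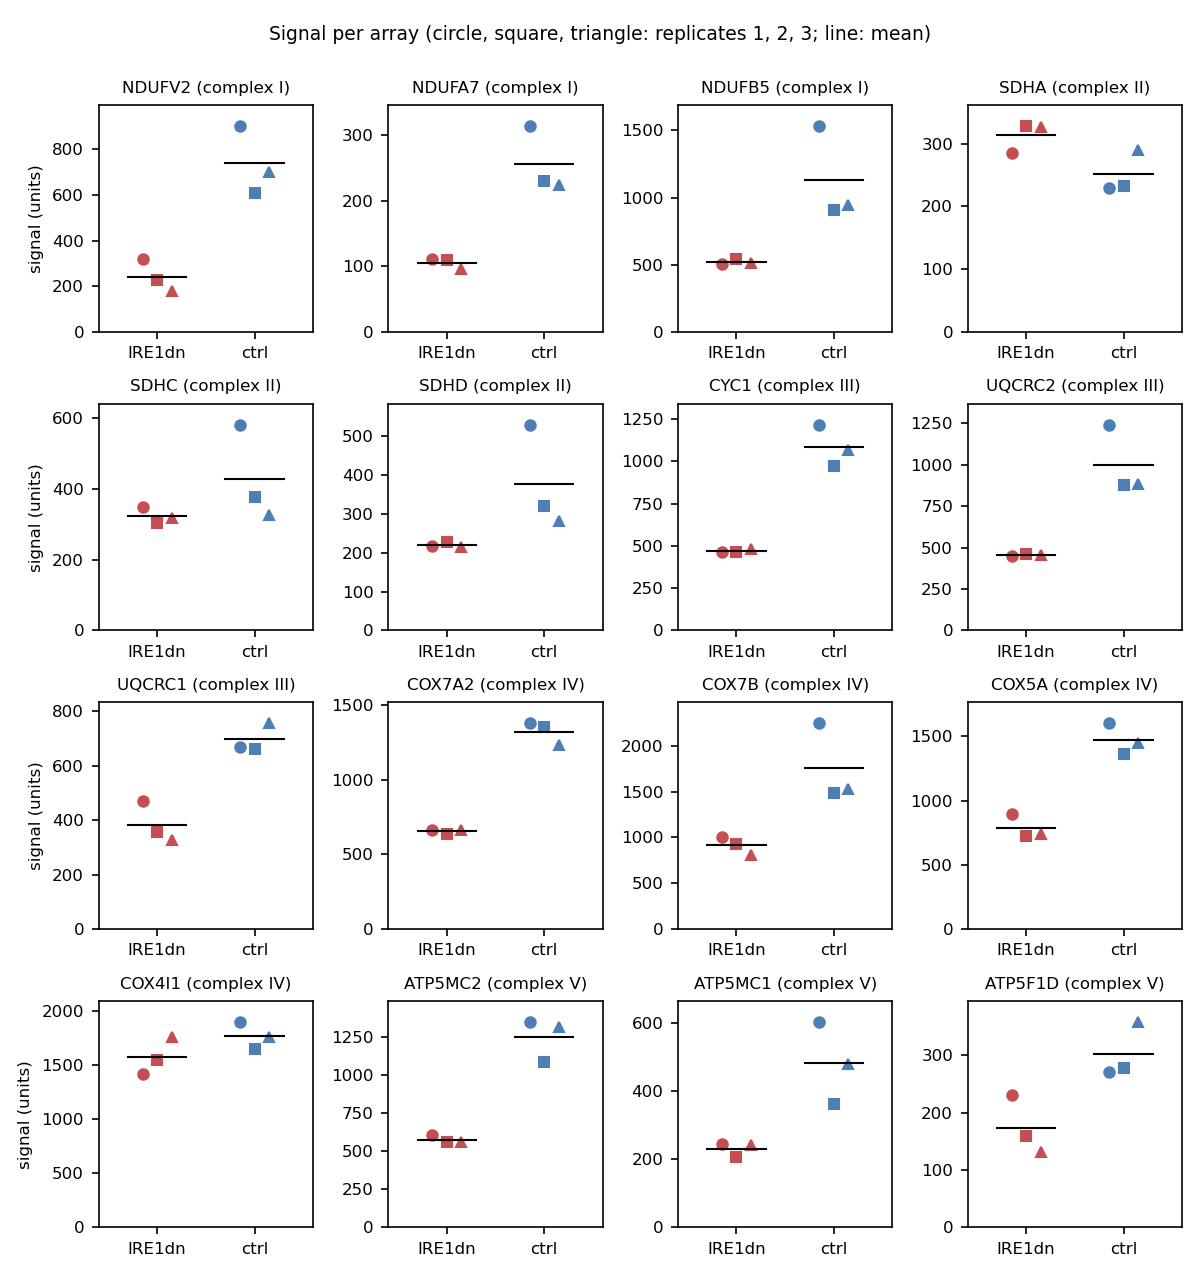
Signal in signal units (y axis, from 0, its own scale per gene) of 16 subunits on each array, with IRE1dn in red to the left of ctrl in blue, replicates 1 to 3 as circle, square and triangle, and a line at the mean of 3 arrays. The 3 red points lie under the 3 blue points except in SDHA, SDHC and COX4I1, where the groups overlap.

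Complex V, the ATP synthase, had 10 of 15 subunits lower with a median of -0.53. Its c ring turns in the membrane as protons pass, and the genes ATP5MC1, ATP5MC2 and ATP5MC3 encode the same mature c subunit with different import signals. ATP5MC2 had 608, 559 and 558 units in IRE1dn against 1352, 1087 and 1318 units in ctrl, a difference of -1.12 (SE 0.15; limma adjusted p = 0.00065). ATP5MC1 had 246, 206 and 241 units in IRE1dn against 604, 361 and 478 units in ctrl, a difference of -1.03 (SE 0.21; limma adjusted p = 0.0050). The groups were apart in both. ATP5MC3, named after its value was seen, fell by 0.76 (limma adjusted p = 0.0047). All 3 c ring genes were called in each fit with 1 array left out.

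ATP5F1D, a subunit of the central stalk, had 231, 159.7 and 131 units in IRE1dn against 271, 278 and 359 units in ctrl, a difference of -0.82 (SE 0.23; limma adjusted p = 0.021). Its groups were apart, and the call was lost without IRE1dn replicate 2 (adjusted p = 0.079) or without IRE1dn replicate 3 (adjusted p = 0.097). Of the 5 subunits of the catalytic head and central stalk 2 were lower, with a median of -0.38, and none was called without IRE1dn replicate 2, and 1 without IRE1dn replicate 1, IRE1dn replicate 3, ctrl replicate 1 or ctrl replicate 3. Of the 3 other membrane subunits all were lower, with a median of -0.61, and 0 were called without IRE1dn replicate 3 and 1 without IRE1dn replicate 2 or ctrl replicate 1. Of the 4 peripheral stalk subunits, which hold the head in place, 2 were lower, with a median of -0.48. Without IRE1dn replicate 1 or 2 the count was 1, and without ctrl replicate 2 it was 3. The complex as a whole had 5 subunits lower without IRE1dn replicate 2 and 6 without IRE1dn replicate 3. Among all tested genes the share lower was 12.5%, 9.64% and 9.85% without IRE1dn replicates 1, 2 and 3 in turn. It was 15.9%, 14.7% and 17.6% without ctrl replicates 1, 2 and 3 in turn.

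Set side by side, the share of tested subunits lower in IRE1dn was 67.9% in complex I, 33.3% in complex II, 71.4% in complex III, 81.8% in complex IV and 66.7% in complex V, beside 16.5% of all tested genes. Medians ran from -0.71 in complex I to -0.36 in complex II, and the middle 50% of differences ran from -0.85 to -0.44 in complex I, from -0.99 to -0.43 in complex III, from -0.81 to -0.47 in complex IV and from -0.75 to -0.46 in complex V. These ranges overlap, and differences between complexes were not tested. Without both ctrl replicate 1 and IRE1dn replicate 3 the counts were 9 of 28, 0 of 3, 4 of 7, 6 of 11 and 7 of 15 for complexes I to V, beside 7.91% of all tested genes. In the mean of complex II, ctrl replicates 2 and 3 stood at -0.01 and -0.04, and only ctrl replicate 1, at 0.43, was far from the IRE1dn arrays (-0.14, -0.12 and -0.12). With 3 genes, its summary rests on that array: the median was -0.12 without it.

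Of the 8 genes caught only by the prefix, 6 were tested and 4 were lower. NDUFAF4, which takes part in early complex I assembly, had 172, 169 and 141 units in IRE1dn against 398, 421 and 381 units in ctrl, a difference of -1.31 (SE 0.16; limma adjusted p = 0.0005) with groups apart. The assembly factors NDUFAF1 and NDUFAF3 had differences of -0.87 and -0.83 (limma adjusted p = 0.023 and 0.0097). ATP5IF1, which blocks ATP hydrolysis by complex V, fell by 0.90 (SE 0.25; limma adjusted p = 0.021). NDUFAF7 and ATP5MC2P1 did not pass the threshold, and NDUFAF5 and NDUFB2-AS1 were below the filter level. Without IRE1dn replicate 1, 2 or 3 in turn, 2 of these genes were lower, beside 12.5%, 9.64% and 9.85% of all tested genes.

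**Figure D4:**
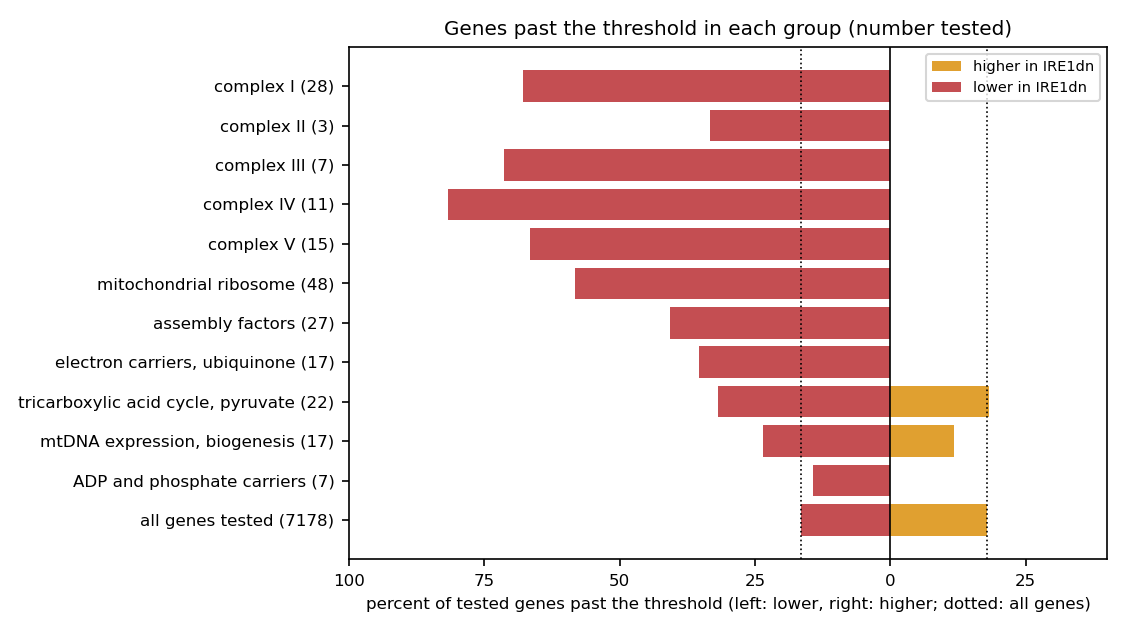
Percent of tested genes past the threshold in each gene group (x axis; lower in IRE1dn to the left of 0, higher to the right), with the number tested in brackets and dotted lines at the shares of all tested genes. Complexes I, III, IV and V and the mitochondrial ribosome have the longest bars to the left, and bars to the right appear for the tricarboxylic acid cycle and biogenesis lists and for all tested genes.

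Genes that build or feed the respiratory chain are given for context, and their counts stand beside 16.5% lower and 17.9% higher among all tested genes. The mitochondrial ribosome makes the core proteins encoded by mitochondrial DNA, and 28 of its 48 tested protein genes were lower and 0 higher, with a median of -0.71 and 48 negative differences. MRPS33 (-1.41; limma adjusted p = 0.0039) and MRPL28 (-1.35; limma adjusted p = 0.0086) had its largest decreases. The count was 10 of 48 without both ctrl replicate 1 and IRE1dn replicate 3, beside 7.91% of all tested genes. Of 13 subunits encoded by mitochondrial DNA, 0 had a probe set of their own, so they were not analysed here.

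Of 27 tested assembly factors 11 were lower and 0 higher, with a median of -0.43. Without the 4 NDUFAF genes counted above, 8 of 23 were lower and 0 higher, with a median of -0.34, beside 16.5% of all tested genes lower. UQCC1, an assembly factor of complex III, fell by 1.08 (SE 0.15; limma adjusted p = 0.0010). Among 17 electron carrier and ubiquinone genes 6 were lower and 0 higher, with a median of -0.33. Without IRE1dn replicate 2 or 3 the count was 3, beside 9.64% and 9.85% of all tested genes. COQ10B, a ubiquinone-binding protein, fell by 1.12 and ETFB, which carries electrons from fatty acid oxidation, fell by 0.999 (limma adjusted p = 0.0027 and 0.0015). CYCS, cytochrome c, was at -0.36 and missed the threshold (adjusted p = 0.061). Of 7 tested carrier and pore genes 1 was lower, or 14.3% beside 16.5% of all tested genes: the ADP/ATP carrier SLC25A5 (-0.41; limma adjusted p = 0.034), and this call was lost without 5 of the 6 arrays in turn.

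In the tricarboxylic acid cycle and pyruvate entry list 7 of 22 tested genes were lower and 4 higher, with a median of -0.48. Among all tested genes 16.5% were lower and 17.9% higher, so the count of higher genes is near the background. IDH2, the mitochondrial NADP-linked isocitrate dehydrogenase, had 493, 434 and 449 units in IRE1dn against 155, 136 and 150.5 units in ctrl, a difference of 1.63 (SE 0.16; limma adjusted p = 0.00015). PDK3 had 47.6, 67.6 and 75.1 units in IRE1dn against 23.6, 13.7 and 24.8 units in ctrl, a difference of 1.55 (SE 0.29; limma adjusted p = 0.0036). PDK1 had 111, 115 and 95.8 units in IRE1dn against 25.5, 35.6 and 52.9 units in ctrl, a difference of 1.51 (SE 0.26; limma adjusted p = 0.0027). PDK1 and PDK3 are kinases that switch off pyruvate dehydrogenase, and in these 3 genes every IRE1dn array was above every ctrl array. PDK2, another of these kinases, went the other way. It had 33.0, 20.3 and 21.1 units in IRE1dn against 39.2, 36.4 and 39.1 units in ctrl, a difference of -0.62 (limma adjusted p = 0.079). PDK1, PDK2 and 2 more genes of this list were named after their values were seen. Of the latter, PC, pyruvate carboxylase, was higher by 0.71 (adjusted p = 0.046), and DLAT, a pyruvate dehydrogenase subunit, fell by 0.87 (adjusted p = 0.0091). The count of lower genes was 4 without IRE1dn replicate 2 or 3, beside 9.64% and 9.85% of all tested genes. Without both ctrl replicate 1 and IRE1dn replicate 3, 2 of 22 were lower and 3 higher. In that fit 7.91% of all tested genes were lower, so the lower count is near the background there. The share of all tested genes higher in that fit is not given here, so the higher count cannot be read against it.

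Of 17 tested genes for mitochondrial DNA expression and biogenesis, 4 were lower and 2 higher, with a median of -0.08, near the 16.5% lower and 17.9% higher of all tested genes. ESRRA, a nuclear receptor that activates respiratory genes, had 51.4, 40.9 and 38.8 units in IRE1dn against 84.6, 107 and 93.3 units in ctrl, a difference of -1.09 (SE 0.20; limma adjusted p = 0.0038). TFB2M, a mitochondrial transcription factor, fell by 1.05 (limma adjusted p = 0.0026). Factors that bind the promoter letters above were named after their values were seen. NRF1 was at 0.66 (adjusted p = 0.13), GABPA at 0.11 (adjusted p = 0.76) and YY1 at 0.17 (adjusted p = 0.52), none past the threshold. The GABP subunit gene GABPB1 was higher by 0.58 (adjusted p = 0.049), as was PPRC1, a coactivator, by 0.64 (adjusted p = 0.033). The count of higher genes in this list was 0 without IRE1dn replicate 2, IRE1dn replicate 3, ctrl replicate 1 or ctrl replicate 2. Without ctrl replicate 3 it was 3, with 7 lower, beside 17.6% of all tested genes lower. The share of all tested genes higher in these fits is not given here, so the counts of higher genes cannot be read against it.

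Other probe sets of the same genes were read apart from those used above. The tested subunits had 33 more, of which 24, from 16 genes, lay above the filter level. All 24 had a negative difference, with a median of -0.71, and the other 9 were too dim to be read. The smallest differences were -0.006 for NDUFA6 and -0.09 for ATP5PO, with overlapping groups in both. The probe sets used for these genes gave -0.42 (limma adjusted p = 0.0498) and -0.49 (limma adjusted p = 0.080). The other probe sets share RNA with the probe sets used and are no further replicates.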

How the data were processed

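Array intensities were deposited by the authors as linear signal per probe set. The submitters' processing notes name GCOS 1.2; the summarisation algorithm is not given in the sources used here. Tests used log2(signal + 1.75), in which 1.75 is the 20th percentile of all values. Symbols came from the platform annotation, updated by identifier through RefSeq (19052 of 19064 single-symbol probe sets matched). The probe set with the highest mean was used per gene, and the 7178 genes above the 40th percentile of the mean (13.0 units) were tested with limma 3.58.1 in R 4.3.3 (eBayes with trend, 6 arrays, no covariate, two-sided), adjusted by Benjamini-Hochberg over all of them, with a threshold of 0.05. The filter left out 4 of the 74 genes. The number of arrays limits the precision.

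The genes and lists were chosen with earlier results of these data known. Named were the 3 largest decreases and increases per complex past the threshold with non-overlapping groups, isoforms, SDH genes, and the 2 largest changes of each other list. Others were named after their values were seen (NDUFV1, NDUFA2, NDUFA6, UQCR10, UQCR11, UQCRB, UQCRQ, ATP5MC3, ATP5PO, the prefix-only genes besides NDUFAF4, CYCS, PDK1, PDK2, PC, DLAT, NRF1, GABPA, GABPB1, YY1 and PPRC1). The alternatives changed the pseudocount, filter, scaling, probe set rule, variance model or array weights, added the replicate block, or left out arrays. Deviations of arrays with the same replicate number had correlations of -0.10, 0.06 and 0.02. No pairing by number was thus seen, which cannot show that same-numbered arrays were handled apart.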

Additional observations from a re-analysis of the deposited data

How the results depend on the processing

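The precision is limited by 6 arrays. Under all alternatives 63 subunits had a negative difference and 0 subunits were called higher. The counts of subunits called lower follow, with the share of all tested genes called lower in the same fit in brackets. A pseudocount of 1 (16.5%) or of 16 (16.8%) gave 44. The count was 37 without the filter (9.31%) and 45 with a filter at the 60th percentile (19.5%). Quantile normalization gave 49 (18.4%), equal medians 46 (18.8%) and the mean of all probe sets 41 (16.2%). It was 37 without the intensity trend (15.7%), 44 with robust eBayes (16.6%) and 45 with array weights (19.1%). No sample pairing was found. The replicate block, as an alternative only, left 42 subunits and 46 of all 70 tested genes of the module, beside 15.3% of all tested genes. Leaving out 1 array gave 28 to 46 subunits called lower, and the share of all tested genes ran between 9.64% and 17.6%. For the module 30 to 50 genes were called lower, against 48 with all arrays. The lowest count and share came without IRE1dn replicate 2. Of the 44 subunits, 25 were called without each of the 6 arrays and 19 were lost without at least 1.

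An alternative chosen after seeing the data left out both IRE1dn replicate 3 and ctrl replicate 1. It gave 26 subunits and 27 genes of the module called lower, beside 7.91% of all tested genes. It also gave 10 mitochondrial ribosome genes called lower (19 to 28 with 1 array left out). Its medians were -0.51 over the module, -0.54 for complex I, -0.11 for complex II, -0.52 for complex III and -0.47 for complex IV. With 1 array left out, medians ran between -0.70 and -0.53 over the module, -0.81 and -0.63 in complex I, -0.53 and -0.12 in complex II, -0.76 and -0.54 in complex III, -0.70 and -0.51 in complex IV, and -0.63 and -0.48 in complex V. The mean of all probe sets gave -0.15 for complex II and -0.70 for complex V. Equal medians moved the median of all genes to -0.06. Over the genes named by rule and PDK1, under all alternatives, 543 values kept direction and side of the threshold and 31 kept the direction only. Among the latter were SDHD, ATP5F1D, COX6A1, COX6B1, SLC25A5 and MRPL28. The other genes named after their values were seen are outside this tally. SDHD was at -0.15 with the mean of all probe sets, which is also the complex II median in that setting. That mean takes in a second SDHD probe set below the filter level, with 0.63 to 6.21 units and a difference of 0.42. The cause of the other moves was not tested.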

Other observations

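A few subunit transcripts are read only by probe sets that the annotation gives to several genes, and these stand outside the counts above. NDUFS8, an iron-sulfur subunit of complex I, shares its annotation with microRNA genes of the same locus. Its first probe set had 246 ± 119 units in IRE1dn and 677 ± 105 units in ctrl, and its other had 539 ± 51.7 units in IRE1dn and 1047 ± 291 units in ctrl (SD, n = 3 each). The probe set of UQCRH and its copy UQCRHL had 1001 ± 32.3 units in IRE1dn and 1493 ± 230 units in ctrl. That of ATP5MF and ARMC2-AS1 had 1047 ± 35.0 units in IRE1dn and 1492 ± 241 units in ctrl. That of NDUFS5 and RPL10 had 973 ± 55.5 units in IRE1dn and 1398 ± 275 units in ctrl, and that of NDUFC2 and NDUFC2-KCTD14 had 614 ± 74.4 units in IRE1dn and 782 ± 59.1 units in ctrl. These differences were not tested, and the share of each gene in such a signal cannot be told apart.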
